A study of Mus musculus with 6 samples.

Results

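The major urinary protein genes (*Mup* genes) of the mouse were followed in RNA sequencing of cultured hepatocytes. The 10 genes described are *Mup1*, *Mup3*, *Mup7*, *Mup11*, *Mup12*, *Mup14*, *Mup16*, *Mup17*, *Mup20* and *Mup21*, taken by symbol from the 55487 genes of the count files. These files hold 49 *Mup* genes in all, of which 27 are annotated as pseudogenes. The 10 were selected on their measured counts and on the difference between the genotypes in these same libraries, so their levels, fold changes and calls are given as a description. A call among them restates that choice and supports nothing further. No threshold was stated for the list. *Mup12*, the listed gene with the fewest counts, had 76 to 144 counts per library, and *Mup6*, the most counted *Mup* gene outside the list, had 58 to 91.

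The hepatocytes came from livers of adult mice, 6 to 8 weeks old, of the genotypes AEG-1-WT (WT below) and AEG-1-C75S homozygote (C75S below), both offspring of heterozygous parents, and all carry the treatment label Control. AEG-1, encoded by *Mtdh*, is a membrane protein of the endoplasmic reticulum, and in C75S the cysteine that can carry its palmitoyl group is replaced by serine. RNA was taken 48 h after the cells were isolated, and the study asked what palmitoylation does to AEG-1 function. Each genotype has 3 libraries. The labels do not say whether these are separate mice, so n counts libraries and the spread between them may be technical. The labels give neither the sex nor the strain of the mice.

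Major urinary proteins are small secreted lipocalins, barrel-shaped carriers that hold volatile pheromones. The liver makes most of them, the kidney passes them into urine, and males of most strains make more than females. Their transcription in liver is known to depend on growth hormone acting through STAT5, and also on androgens, glucocorticoids and thyroid hormone. The genes lie in a tandem array in which a central block of near-identical copies, alternating with pseudogenes, is flanked by older and more divergent members. *Mup20* encodes darcin, a male pheromone that draws females to male scent marks.

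All 10 genes lie on the minus strand of chromosome 4 in GRCm38 (GENCODE M21), within an array of 2194060 bases from 59956804 to 62150863. In order along the chromosome they are *Mup7* (60066469 to 60070475), *Mup1* (60498012 to 60501960), *Mup11* (60658466 to 60662411), *Mup12* (60737383 to 60741326), *Mup14* (61300023 to 61304000), *Mup16* (61515592 to 61519531), *Mup17* (61591929 to 61595871), *Mup20* (62050234 to 62054158), *Mup3* (62083476 to 62087342) and *Mup21* (62147932 to 62150863). None of them overlaps another annotated gene. The coding sequences of the first 7 were 98.3% to 99.6% identical to each other, with 2 to 9 differing alignment columns per pair. *Mup20* shared 90.1% to 91.3% of columns with these 7, *Mup3* 82.3% to 83.6% and *Mup21* 83.6% to 84.7%, while *Mup3* and *Mup21* were 94.75% identical to each other. The first 7 are called the near-identical copies below, and *Mup20*, *Mup3* and *Mup21* the divergent genes. This split follows the sequences, but it was made after the values had been seen. Some *Mup* genes outside the list, such as *Mup9* and *Mup18*, are as close in sequence to the 7 but are not meant by the term.

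The stretch of 60 coding bases below, from exon 2 of each gene, is shown because no other gap-free stretch of that length varies in more columns among the near-identical copies, and it shows how few bases separate them. It was read from the GENCODE M21 transcripts. It begins at coding base 98 in *Mup7*, which is chr4:60069806-60069865 on the minus strand. The lines are written 5′ to 3′ in the order of the chromosome, and capitals mark a base that differs from the one most of the 10 genes have in that column.
Mup7: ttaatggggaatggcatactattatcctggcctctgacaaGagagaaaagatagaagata
Mup1: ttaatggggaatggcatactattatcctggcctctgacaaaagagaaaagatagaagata
Mup11: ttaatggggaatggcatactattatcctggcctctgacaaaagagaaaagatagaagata
Mup12: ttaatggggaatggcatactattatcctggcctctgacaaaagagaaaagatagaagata
Mup14: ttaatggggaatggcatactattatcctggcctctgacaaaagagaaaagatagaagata
Mup16: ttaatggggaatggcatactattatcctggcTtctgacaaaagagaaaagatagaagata
Mup17: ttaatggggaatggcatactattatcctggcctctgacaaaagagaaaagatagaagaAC
Mup20: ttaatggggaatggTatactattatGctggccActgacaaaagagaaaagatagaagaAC
Mup3: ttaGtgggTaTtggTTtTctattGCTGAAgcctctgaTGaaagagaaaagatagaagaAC
Mup21: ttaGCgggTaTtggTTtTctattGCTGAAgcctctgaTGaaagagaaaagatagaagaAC
Of the 60 columns, 20 varied among the 10 genes and 4 among the near-identical copies. *Mup1*, *Mup11*, *Mup12* and *Mup14* were the same over the whole stretch, *Mup7* and *Mup16* had 1 base off the majority each, *Mup17* had 2, *Mup20* 5, *Mup3* 16 and *Mup21* 17. Across the whole alignment of 552 columns, 123 varied among the 10 genes and 16 among the near-identical copies.

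**Figure D1:**
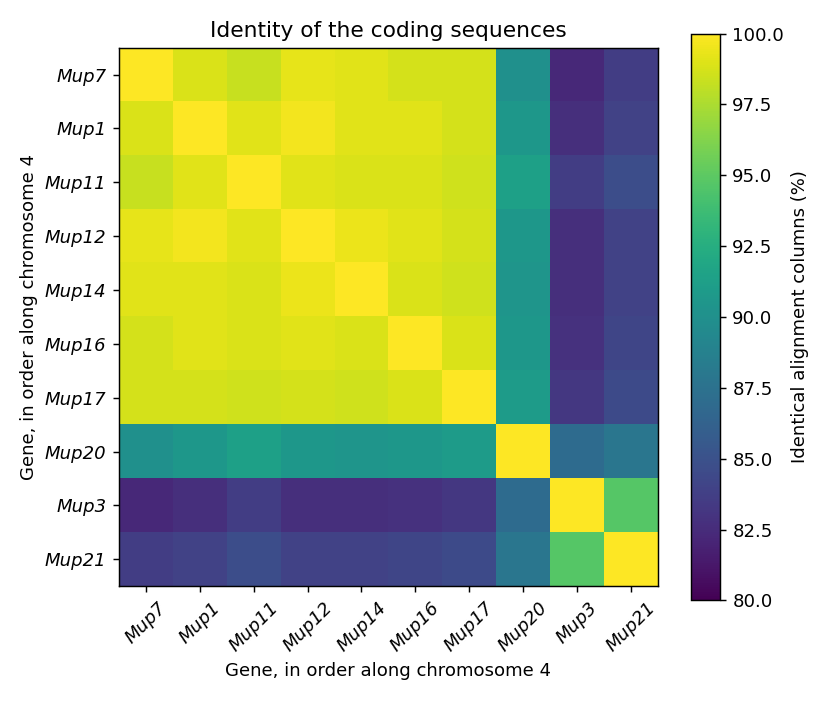
Identity of the coding sequences of the 10 genes, as the percentage of identical alignment columns per pair, with genes in chromosome order on both axes. The 7 near-identical copies form a block at 98.3% to 99.6%, *Mup3* and *Mup21* a pair at 94.75%, and *Mup20* shares 90.1% to 91.3% with the 7.

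How much of each gene could be counted depended on the sequence that its whole transcript shares with other genes, listed or not. The files list reads that map to several places apart from the genes (18.0% to 18.5% of all reads in each library), so a gene's count rests on stretches found in no other gene. Of the 100-base stretches of the longest transcript, those found in no transcript of another gene made up 97.1% in *Mup3*, 95.5% in *Mup21*, 61.2% in *Mup20* and 40.6% in *Mup17*. The share was 22.5% in *Mup12*, 19.9% in *Mup16*, 18.4% in *Mup7*, 16.5% in *Mup11*, 12.8% in *Mup1* and 8.60% in *Mup14*. The read length is not given in the sources used here, so stretches of 50 and 150 bases were also counted, and with 50 bases *Mup14* kept 2.40% and *Mup3* 84.4%. Counts of the near-identical copies therefore cover only part of each transcript, and their levels set against other genes are too low by an amount that differs from copy to copy. The stretches were scored on the longest transcript alone, while counts join all exons of a gene. *Mup19* had 0 unique stretches of 50 or 100 bases but 25 counts over the 6 libraries. These percentages are thus not an exact measure of what could be counted.

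Counts on genes numbered from 16944723 to 21044292 per library, and the 10 genes together took 0.395% to 0.401% of them in WT and 0.435% to 0.445% in C75S. The hepatocyte label was checked on 10 hepatocyte markers, all of them detected. Their summed level was 67177 to 80110 CPM (counts per 1000000 counts on scaled library sizes) in C75S and 75325 to 83075 CPM in WT. *Alb* alone made up most of this sum, at 55643 to 66472 CPM in C75S and 63097 to 70067 CPM in WT. Of the 10 markers 1, *Cyp2e1*, was called higher in C75S. Over all genes tested, 3.11% were called in either direction, and this share stands beside the other marker lists too. Cholangiocyte markers, 6 of 7 detected, *Cftr* at 0 and 4 under 1 CPM on average, summed to 144 to 197 CPM in C75S and 122 to 133 CPM in WT, with *Krt19* called higher. Stellate cell markers, 8 of 8 detected but 6 under 1 CPM on average, summed to 53.6 to 70.1 CPM in C75S and 69.1 to 91.6 CPM in WT, with none called. Kupffer cell and macrophage markers (96.2 to 140.2 CPM in C75S, 103 to 135 CPM in WT) and endothelial markers (31.4 to 41.9 and 29.7 to 40.5 CPM) overlapped between the groups. Of the 8 Kupffer cell and macrophage markers 7 were under 1 CPM on average, so nearly all of their sum came from the remaining marker. Of the 8 endothelial markers 4 were under 1 CPM. The part of these cells in the results below was not tested. In such bulk libraries fewer cells of a type and less RNA per cell cannot be told apart. Because *Mup* levels differ between the sexes, sex-linked genes were read in each library. The Y-linked gene *Ddx3y* lay between 96.1 and 129 CPM in the 6 libraries and *Uty* between 31.5 and 38.1 CPM, while *Xist*, the RNA of the inactive X chromosome, did not pass 0.390 CPM. Y-linked transcripts were thus present in all 6 libraries, and *Ddx3y* was itself higher in C75S (edgeR adjusted p = 0.00319), while *Eif2s3y*, *Kdm5d* and *Uty* were not called. *Mtdh* had 199.8 ± 10.5 CPM in C75S against 197 ± 5.18 CPM in WT (SD, n = 3 each), and a gene count does not read the mutated codon.

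In WT hepatocytes *Mup3* was by far the most counted of the 10 genes. It was measured at 2632, 2629 and 2733 CPM in WT replicates 1, 2 and 3, which gave it rank 28 or 29 among all genes. *Mup20* followed at 776, 744 and 729.8 CPM, and *Mup7* at 240.05, 258 and 246 CPM. *Mup17* and *Mup11* lay close together, at 137 ± 4.73 and 129 ± 9.80 CPM (SD, n = 3). *Mup21* was at 37.6 ± 3.63 CPM, *Mup14* at 15.1 ± 0.74, *Mup16* at 7.57 ± 0.75, *Mup1* at 6.82 ± 0.35 and *Mup12* at 4.27 ± 0.72. *Mup12* held ranks 9619 to 10023 among all genes in the same libraries, so the 10 genes lay far apart.

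Levels were compared between genes per kilobase of annotated exon. On that scale the order in WT was *Mup3* (2495 ± 55.1 CPM per kilobase, SD, n = 3), *Mup20* (808 ± 25.3), *Mup7* (239.9 ± 8.75), *Mup17* (148 ± 5.10), *Mup11* (82.0 ± 6.22), *Mup21* (55.5 ± 5.36), *Mup14* (10.9 ± 0.53), *Mup16* (7.29 ± 0.72), *Mup12* (4.61 ± 0.78) and *Mup1* (4.30 ± 0.22). The ranges of neighbours in this order did not overlap, except for *Mup12* and *Mup1*. In C75S the first 6 places were held by the same genes in the same order, *Mup14* and *Mup16* overlapped at 15.7 ± 1.68 and 15.6 ± 0.67 CPM per kilobase, and *Mup1* (7.98 ± 1.19) and *Mup12* (6.75 ± 0.56) overlapped with *Mup1* now above. The exon length joins all transcripts of a gene. For *Mup1*, *Mup11* and *Mup14* it was 1584, 1576 and 1382 bases, but their longest transcripts have 927, 930 and 925. For *Mup12* both lengths were 926 bases. The order near these genes thus depends on the length used. In CPM *Mup1* was above *Mup12* in both genotypes (6.82 and 4.27 in WT, 12.6 and 6.25 in C75S).

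**Figure D2:**
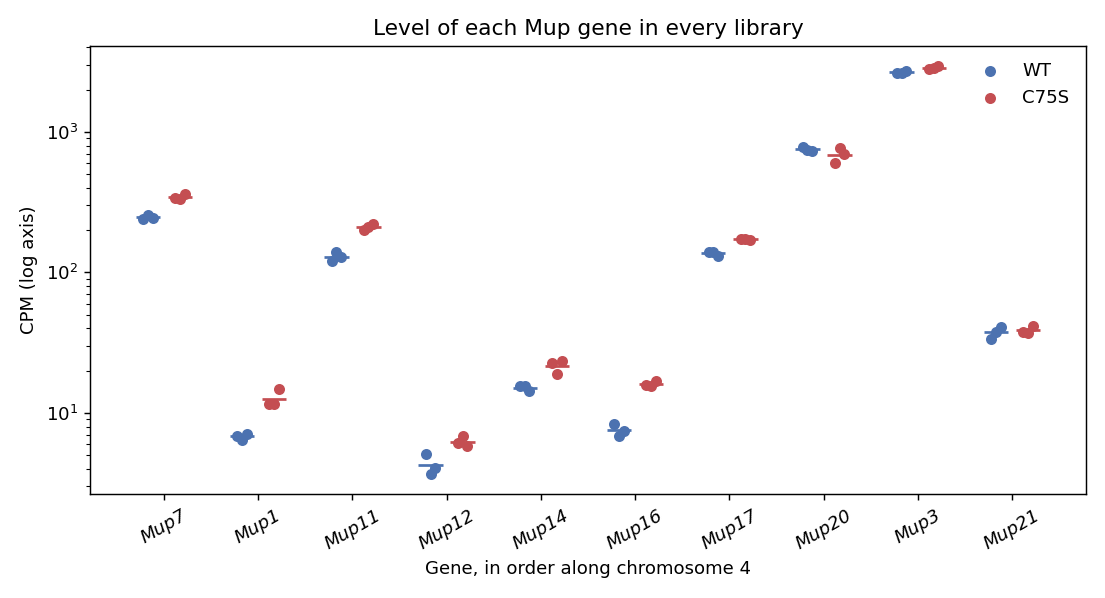
Level of each gene in every library, in CPM on a log axis, with genes in chromosome order, WT in blue and C75S in red; each point is 1 library and each line the mean of 3. The 3 C75S libraries lie above the 3 WT libraries for 8 of the 10 genes, and overlap them for *Mup20* and *Mup21*.

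Shares of the family depended on how the loss of shared stretches was treated. By counts, *Mup3* made up 66.6% ± 0.86 of the 10 genes in WT (SD, n = 3), *Mup20* 18.8% ± 0.72, *Mup7* 6.20% ± 0.24, *Mup17* 3.43% ± 0.15 and *Mup11* 3.23% ± 0.25, and the other 5 genes less than *Mup11* each. Divided by the number of uniquely placeable 100-base positions, the WT share of *Mup3* was 39.8% ± 0.98, that of *Mup20* 19.0% ± 0.75, that of *Mup7* 18.5% ± 0.49 and that of *Mup11* 12.1% ± 0.79. *Mup14*, with the fewest such positions, went from 0.378% to 2.73%. The positions were scored on the longest transcript alone, while counts join all exons. The exons of *Mup1*, *Mup11* and *Mup14* extend well beyond that transcript, so their shares per position may be too high. With 50-base positions *Mup3* was at 31.3% and *Mup7* at 23.9%, and with 150-base positions at 45.9% and 14.9%. In WT *Mup3* had the largest share in each of these units, while *Mup7* passed *Mup20* with 50-base positions. In C75S *Mup3* and *Mup7* were close with 50-base positions (27.0% and 26.5% on average), and *Mup7* was above *Mup3* in C75S replicate 3. *Mup11* and *Mup17* also changed places: *Mup17* was above by counts and per kilobase, but per 100-base position *Mup17* was at 5.24% and *Mup11* at 12.1%. *Mup14* was below *Mup21* by counts (0.378% and 0.940%) and above it per 100-base position (2.73% and 0.874%).

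**Figure D3:**
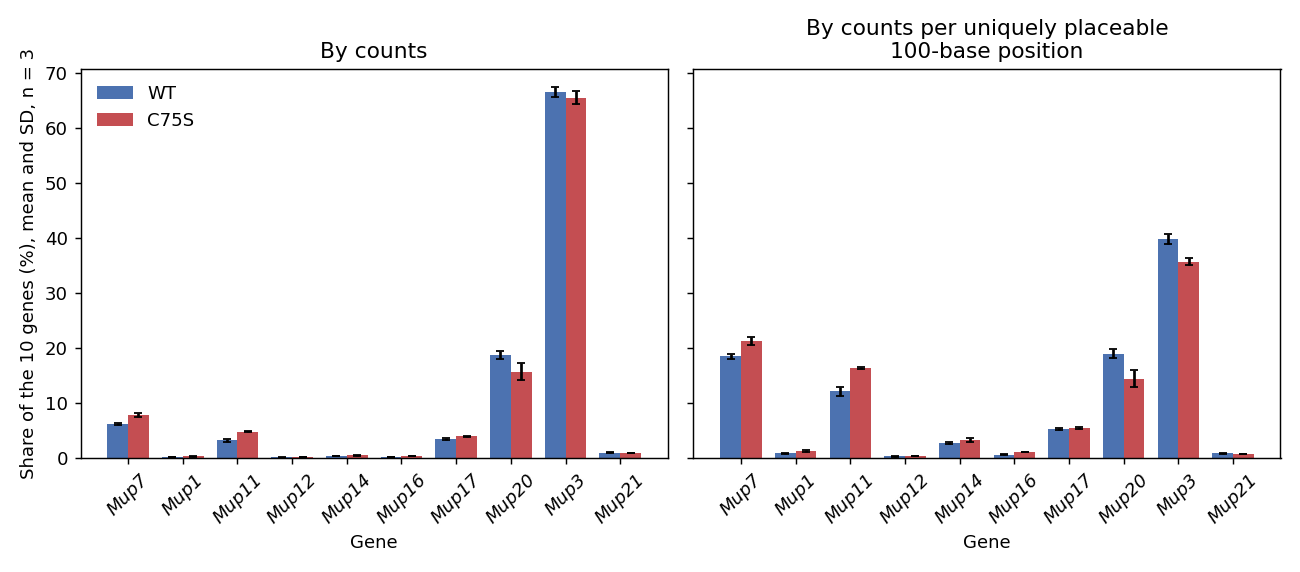
Share of each gene in the sum of the 10 genes, in percent, by counts (left) and by counts per uniquely placeable 100-base position (right), as mean and SD of 3 libraries, WT in blue and C75S in red. *Mup3* goes from 66.6% to 39.8% of the WT sum between the panels, and *Mup7* and *Mup11* gain most.

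Between genotypes all 7 near-identical copies of the list and *Mup3* had higher values in every C75S library than in any WT library. *Mup20* and *Mup21* overlapped between the groups. So did *Mup9* and *Mup18*, which are as close in sequence but outside the list. Of the 10 genes, all of which passed the filter on low counts, 6 were among the genes called higher in C75S at an adjusted p-value under 0.05 (edgeR's quasi-likelihood test over 12741 genes) and none among those called lower. The 6 are all near-identical copies. Over all genes tested, 3.11% were called in either direction, 1.74% higher in C75S and 1.37% lower. The list was made with this comparison known, so nothing is read from the calls or from that difference in shares. The C75S libraries were all above the WT libraries in 8 of the 10 genes and all below in 0, against 9.02% and 8.96% of all genes tested. The median log2 fold change of the 10 was 0.50, and that of all genes tested was -0.003.

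*Mup16*, one of the less counted copies, changed by the largest factor. It was at 15.9, 15.7 and 16.96 CPM in C75S replicates 1, 2 and 3, and at 8.36, 6.87 and 7.47 CPM in the WT replicates. The lowest C75S library was well above the highest WT library, and the log2 fold change was 1.09 (SE 0.12). *Mup1* came next, at 11.5, 11.6 and 14.8 CPM in C75S and 6.88, 6.43 and 7.13 CPM in WT. C75S replicate 3 was the highest of these libraries, and the groups did not overlap, with a log2 fold change of 0.89 (SE 0.13).

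*Mup11* and *Mup7* had the largest differences in CPM among the called genes. *Mup11* was at 201, 211 and 220.1 CPM in C75S against 119.8, 139 and 128 CPM in WT, and its log2 fold change was 0.71 (SE 0.06). *Mup7* was at 336, 333 and 361 CPM in C75S against 240.05, 258 and 246 CPM in WT, a log2 fold change of 0.47 (SE 0.05). In both genes the libraries of one genotype lay close together and apart from those of the other. *Mup17* rose by less, from 140.2, 139 and 132 CPM in WT to 173, 174 and 170.3 CPM in C75S. Its log2 fold change was 0.33 (SE 0.05), and its groups did not overlap.

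*Mup14* was at 22.7, 19.1 and 23.4 CPM in C75S and at 15.6, 15.4 and 14.3 CPM in WT, a log2 fold change of 0.52 (SE 0.10). C75S replicate 2 was its lowest C75S library, still above all of WT. *Mup12* was the copy that was not called, at 6.09, 6.83 and 5.83 CPM in C75S and 5.08, 3.70 and 4.03 CPM in WT. Its groups did not overlap either, and its log2 fold change of 0.55 had the largest SE of the 10 genes, 0.17. *Mup12* was called when WT replicate 1, its highest WT library, was left out (log2 fold change 0.70).

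The divergent genes behaved otherwise. *Mup3* was at 2824, 2866 and 2931 CPM in C75S and 2632, 2629 and 2733 CPM in WT, so the groups did not overlap, but the log2 fold change was 0.11 (SE 0.05) and the gene was not called. *Mup20*, the darcin gene, was at 601, 768 and 695 CPM in C75S and 776, 744 and 729.8 CPM in WT, with a log2 fold change of -0.12 (SE 0.07). C75S replicate 1 was its lowest library, and C75S replicate 2 lay within the WT range. Without C75S replicate 1 the value was -0.04, and without C75S replicate 2 it was -0.21. C75S replicate 1 was also the shallowest library and had the lowest *Alb* level (55643 CPM, against 59707 to 70067 in the others). It had the highest share of unmapped reads (5.81%, against 4.37% to 4.82%), and the part of these in its *Mup20* value was not tested. *Mup21* was at 37.6, 37.0 and 41.6 CPM in C75S and 33.9, 37.9 and 41.1 CPM in WT, with overlapping groups and a log2 fold change of 0.04 (SE 0.08) that turned negative without C75S replicate 3 (-0.01) or WT replicate 1 (-0.03).

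**Figure D4:**
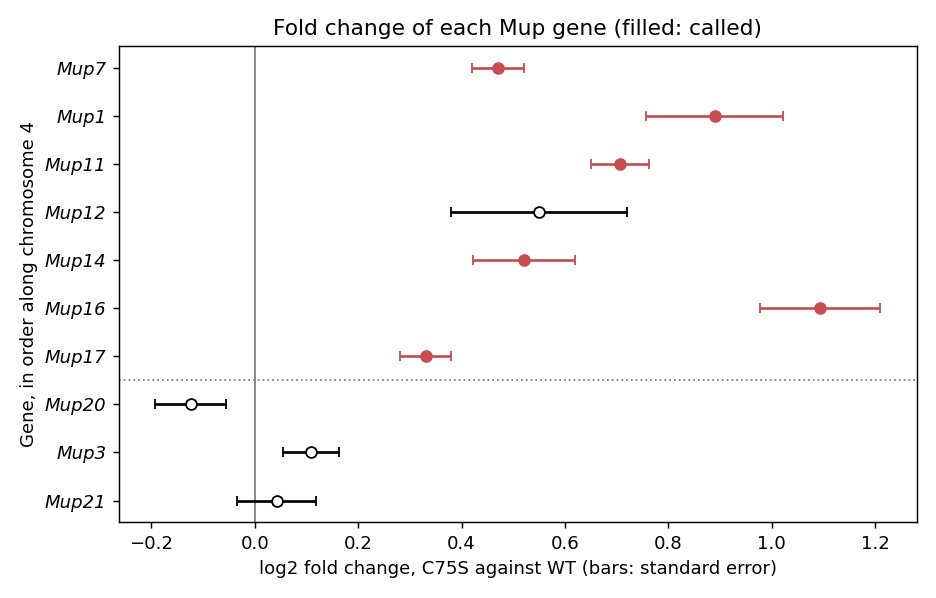
Log2 fold change of C75S against WT for each gene, in chromosome order from top to bottom, with bars for the standard error; filled red points were called and the dotted line parts the near-identical copies (above) from *Mup20*, *Mup3* and *Mup21* (below). The 6 called genes lie between 0.33 and 1.09, and the divergent genes between -0.12 and 0.11.

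Summed, the 7 near-identical copies stood at 766, 771 and 813 CPM in the C75S libraries and 536, 569 and 539 CPM in the WT libraries, a ratio of 1.43. The divergent genes summed to 3462, 3671 and 3668 CPM in C75S and 3442, 3412 and 3504 CPM in WT, a ratio of 1.04 with overlapping groups. A count of one gene set against another in the same library does not depend on scaling between libraries. The near-identical copies had 22.1, 21.015 and 22.2 counts per 100 counts of the divergent genes in C75S, and 15.6, 16.7 and 15.4 in WT. All 3 C75S libraries were above all WT libraries in this measure. The genes were listed with this difference known, and the split was made after the values had been seen. The ratio is therefore a description and adds no support. The 10 genes together stood at 4000.4 ± 36.3 CPM in WT and 4384 ± 136 CPM in C75S (SD, n = 3 each). No test is given for this log2 ratio of 0.13.

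The makeup of the family was then compared. The share of *Mup3* in the counts of the 10 genes was 65.6% ± 1.14 in C75S and 66.6% ± 0.86 in WT, with overlapping libraries. Per kilobase of exon its libraries overlapped too (64.3% and 64.7%). Per uniquely placeable 100-base position its share was lower in C75S, at 35.7% ± 0.62 against 39.8% ± 0.98, without overlap. The same held with 50-base positions (27.0% and 31.3%) and 150-base positions (42.1% and 45.9%), so this comparison depended on the unit. By counts, *Mup20* went from 18.8% ± 0.72 in WT to 15.7% ± 1.54 in C75S, without overlap. *Mup7* went from 6.20% to 7.83% ± 0.30, *Mup11* from 3.23% to 4.80% ± 0.09 and *Mup16* from 0.189% to 0.369%. Per 100 counts of *Mup3* in the same library, *Mup16* had 0.563, 0.546 and 0.579 counts in C75S and 0.317, 0.261 and 0.273 in WT. Per 100 counts of *Mup3*, *Mup20* had 21.3, 26.8 and 23.7 counts in C75S and 29.5, 28.3 and 26.7 in WT, where C75S replicate 2 lay just above WT replicate 3 and the groups overlapped.

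The other 39 *Mup* genes added little. Together they had 153 to 199 counts per library, and 99.8% of all *Mup* counts fell on the 10 genes. Of the 39, 21 had no count in any library, 4 had 1 to 9 counts in all and 14 had 10 or more. A low count does not mean the same for all of them. *Mup4* and *Mup6* could be placed along their whole length (100% of 100-base stretches unique) and *Mup5* along 98.7%, and their levels, in that order from *Mup4* to *Mup6* to *Mup5*, were 0.194 ± 0.065, 4.06 ± 0.38 and 0.218 ± 0.141 CPM in C75S and 0.113 ± 0.075, 3.57 ± 0.80 and 0.272 ± 0.143 CPM in WT (SD, n = 3 each). *Mup2* and *Mup15* had 22 unique 100-base positions each and *Mup19* and *Mup22* had 0, so their 20, 0, 25 and 0 counts over the 6 libraries give no measure of their RNA.

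Of the 39, *Mup6*, *Mup9*, *Mup18* and *Mup-ps18* passed the filter and none was called (edgeR; 0 at an unadjusted p-value under 0.05, and 0 called by DESeq2). *Mup18* was at 0.787 ± 0.315 CPM in C75S and 0.403 ± 0.160 in WT, with a fitted log2 difference of 0.94 (SE 0.49, edgeR adjusted p = 0.421) that rests on 6 to 20 counts per library. Its coding sequence is 99.8% identical to that of *Mup11*, and reads of both copies cannot be parted over most of their length. *Mup9*, with a coding sequence 99.6% identical to that of *Mup16*, was at 1.48 ± 0.27 CPM in C75S and 1.88 ± 0.37 in WT. For this gene edgeR fitted -0.34 on the log2 scale (SE 0.30, adjusted p = 0.693), with overlapping groups. For *Mup6* edgeR fitted 0.19 on the log2 scale (SE 0.20, adjusted p = 0.765). The remaining genes with 10 or more counts, *Mup8*, *Mup13* and the pseudogenes *Mup-ps13*, *Mup-ps20*, *Mup-ps21* and *Mup-ps22* among them, stayed under 0.5 CPM in every library.

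Promoters from RefSeq (GRCm38.p6; 250 bases before to 50 after the annotated start) were at hand for 6 of the 10 genes. Those of *Mup11*, a gene called higher, and *Mup3*, the most counted gene and not called, are shown because one was called and the other was not. They are chr4:60662346-60662645 and chr4:62087268-62087567, both on the minus strand, written 5′ to 3′, and capitals mark the hexamer TGTTCT.
Mup11: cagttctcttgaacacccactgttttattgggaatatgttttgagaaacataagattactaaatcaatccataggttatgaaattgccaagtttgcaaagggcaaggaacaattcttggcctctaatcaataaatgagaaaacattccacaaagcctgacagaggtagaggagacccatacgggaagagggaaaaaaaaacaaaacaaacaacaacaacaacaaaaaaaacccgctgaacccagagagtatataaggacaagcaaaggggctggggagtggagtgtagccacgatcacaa
Mup3: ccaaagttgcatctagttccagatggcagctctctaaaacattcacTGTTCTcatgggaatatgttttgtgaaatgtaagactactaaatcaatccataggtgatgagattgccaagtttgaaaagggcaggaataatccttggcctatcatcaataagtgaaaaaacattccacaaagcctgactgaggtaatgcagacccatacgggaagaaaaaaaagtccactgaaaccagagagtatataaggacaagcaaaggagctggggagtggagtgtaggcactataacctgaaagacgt
In local alignments *Mup11* and *Mup17* were 98.9% identical over 278 columns, *Mup3* and *Mup21* 92.9% over 297, and *Mup11* and *Mup3* 77.2% over 298. TGTTCT, letters found in binding elements of glucocorticoid and androgen receptors, was sought on both strands. It was found once in *Mup3*, at position -204 from the start, and once in *Mup21*, at -198, but not in the 4 promoters of near-identical copies (*Mup7*, *Mup11*, *Mup14* and *Mup17*). The windows follow each annotated start and do not all cover the same bases. That of *Mup17* begins inside the stretch that lines up with the hexamer of *Mup3*, so the window could not show it there. In *Mup7*, *Mup11* and *Mup14* that stretch is covered and reads TGTTTT. Of all 32851 promoters of this length, 19.0% hold TGTTCT. The STAT5 motif TTCNNNGAA, which reads the same on both strands, was found in none of the 14 *Mup* promoters of the table, and 8.30% of all promoters hold it. These are matches of letters in a short window and not measured binding.

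Genes that control *Mup* transcription or belong to the same signalling, some of them its targets, were then read in the same test. Of 20 genes of growth hormone and STAT5 signalling, 18 could be tested and none was called by edgeR or DESeq2, with 3 at an unadjusted p-value under 0.05 (median log2 fold change 0.006). Of all genes tested, 3.11% were called and 13.4% had an unadjusted p-value under 0.05. The counts here and below stand against these shares. The growth hormone receptor gene *Ghr* was at 120.4, 131 and 125 CPM in C75S and 131, 132 and 133 CPM in WT, which edgeR fitted as -0.08 on the log2 scale (SE 0.05, adjusted p = 0.549). *Stat5b*, the transcription factor downstream of it, was fitted as -0.08 (SE 0.06, edgeR adjusted p = 0.591). *Socs2* and *Cish*, feedback inhibitors that STAT5 induces, were not called and overlapped between the groups. *Socs2* lay at 15.8 to 17.7 CPM in C75S and 15.4 to 20.04 CPM in WT, and *Cish* at 13.5 ± 0.79 and 13.9 ± 1.56 CPM (SD, n = 3 each). *Igf1*, a growth hormone target of the liver, had 199.2 ± 8.70 CPM in C75S against 189 ± 21.3 CPM in WT.

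Among 21 transcription factors and receptors with known roles in liver or *Mup* expression, 1 was lower and 0 higher in C75S, with 4 at an unadjusted p-value under 0.05 and 1 called by DESeq2. The share called of all genes tested was 3.11%. The called gene was *Thra*, a thyroid hormone receptor, which fell from 12.2 ± 1.74 to 8.57 ± 1.46 CPM (SD, n = 3 each; edgeR adjusted p = 0.0385). Its call was lost in 5 of 12 alternative fits, with unstranded counts (adjusted p = 0.0688) and without C75S replicate 1 or 2 or WT replicate 1 or 2 (up to 0.202). *Zhx2*, a zinc finger and homeobox factor known to regulate *Mup* genes, was at 36.1 ± 3.19 CPM in C75S and 36.6 ± 2.89 in WT (edgeR adjusted p = 0.961). *Hnf4a*, a master regulator of hepatocyte genes, was at 555 ± 18.8 and 580.1 ± 20.4 CPM (edgeR adjusted p = 0.654).

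Liver genes known for a sex bias, as *Mup* genes are, moved in both directions. Of 24 male-biased genes 21 were tested, 4 were higher and 1 lower in C75S, and the median over the list was 0.03 on the log2 scale. Of the 21, 6 had an unadjusted p-value under 0.05 and 5 were called by DESeq2. Over all genes tested, 3.11% were called by edgeR and 13.4% had an unadjusted p-value under 0.05. *Hsd17b6*, a dehydrogenase of androgen and retinol metabolism, rose from 2.63 ± 0.40 to 10.2 ± 0.40 CPM (edgeR adjusted p = 3.4e-08), *Moxd1*, a monooxygenase-like gene, from 0.032 ± 0.028 to 1.37 ± 0.25 CPM (adjusted p = 2.96e-05) and *Cyp2f2*, a cytochrome P450, from 26.9 ± 3.45 to 38.9 ± 3.08 CPM (adjusted p = 0.000434). *C8a*, a complement component, rose from 32.2 ± 3.08 to 41.6 ± 3.52 CPM (edgeR adjusted p = 0.00918), and *Serpina12*, a serpin, fell from 10.5 ± 1.09 to 6.98 ± 0.59 CPM (adjusted p = 0.0126). The call of *C8a* was lost without WT replicate 2 (adjusted p = 0.0907), and that of *Serpina12* without C75S replicate 2 or WT replicate 1 (up to 0.0696). The male-biased genes *Cyp2d9*, at 76.9 ± 8.55 and 81.6 ± 2.38 CPM, and *Serpina1e*, at 1215 ± 94.0 and 1296 ± 70.1 CPM in C75S and WT, were not called. Of 26 female-biased genes 13 were tested, 0 were higher and 2 lower in C75S, with 5 at an unadjusted p-value under 0.05 and 3 called by DESeq2. *Fmo2*, a flavin monooxygenase, fell from 15.1 ± 2.30 to 9.47 ± 0.61 CPM (edgeR adjusted p = 0.00136), and *Cyp2b10*, a cytochrome P450 induced by xenobiotics, from 1046 ± 30.8 to 739.9 ± 109 CPM (adjusted p = 0.00731). *Cyp2b10* lost its call without WT replicate 1 or WT replicate 3, with an adjusted p of 0.0523 at most. *Cyp2a4*, *Sult2a1*, *Cyp3a41a* and *A1bg* of this list were at or under 0.2 CPM in all libraries.

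The genes around the array were read next. Of 60 protein-coding genes within 3 Mb on either side, 34 were tested, 1 was higher and 0 lower in C75S, with 5 at an unadjusted p-value under 0.05. These counts are near the shares of all genes tested, 3.11% called and 13.4% at an unadjusted p-value under 0.05. The called neighbour was *Orm2*, an acute-phase lipocalin, which rose from 82.3 ± 1.91 to 103 ± 8.75 CPM (SD, n = 3 each; edgeR adjusted p = 0.00136). Its paralogues *Orm1*, at 886 ± 59.6 and 842 ± 51.2 CPM in C75S and WT, and *Orm3* were not called, and reads shared among these copies could not be placed. Of 18 lipocalin genes outside the family 10 were tested and 3 were higher: *Orm2*, the iron-carrier binder *Lcn2*, from 1445 ± 89.97 to 1709 ± 134 CPM (edgeR adjusted p = 0.029), and *Ptgds*, a prostaglandin synthase, from 0.306 ± 0.076 to 1.55 ± 0.21 CPM (adjusted p = 0.0014). Of the 10 lipocalins tested, 3 had an unadjusted p-value under 0.05 and 3 were called by DESeq2, beside the same shares of all genes tested. The call of *Lcn2* was lost in 4 fits, those without C75S replicate 3 or any one of the WT replicates (adjusted p up to 0.19). The plasma lipocalins *Rbp4* and *Ambp*, carriers made by hepatocytes, were at 1606 ± 149.5 and 1744 ± 138 CPM in C75S and 1736 ± 82.3 and 1809 ± 24.7 CPM in WT, and were not called.

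Other secreted products of the hepatocyte likewise moved both ways. Of 20 tested, 5 were higher and 1 lower in C75S, and the list's median was 0.03 on the log2 scale. Of the 20, 9 had an unadjusted p-value under 0.05 and 6 were called by DESeq2. Over all genes tested, 3.11% were called by edgeR and 13.4% had an unadjusted p-value under 0.05. The gene lists were chosen with earlier results of these data known, so nothing is read from such differences in shares. *Apoa2*, an apolipoprotein of high-density lipoprotein, rose from 369 ± 17.9 to 502 ± 41.4 CPM (edgeR adjusted p = 2.91e-05), and the fibrinogen chains *Fgg* and *Fgb* rose from 268 ± 11.1 to 348 ± 27.2 and from 1320.0 ± 53.6 to 1650.0 ± 98.5 CPM (adjusted p = 0.000133 and 0.00112). The other called genes were *Fga* and *Kng1*, both higher (adjusted p = 0.00852 and 0.0155), and *Ahsg*, lower (0.0341). The call of *Fga* was lost when replicate 2 of either genotype was left out (edgeR adjusted p up to 0.1002), that of *Kng1* without C75S replicate 2 or 3 or WT replicate 1 or 2 (up to 0.104), and that of *Ahsg* in 5 of 12 fits, without C75S replicate 1 or 2 or any one of the WT replicates (up to 0.215). *Alb* was at 60607 ± 5471 CPM in C75S and 67143 ± 3618 in WT (adjusted p = 0.347). Without C75S replicate 2 or WT replicate 2 the calls of this list went from 6 to 3.

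The profile over the 6 libraries was compared with those of 9626 genes with a mean of at least 5 CPM, as the root mean square difference of centred log2 CPM. Nearest to the summed 10 genes were *Pomp*, *Pnpt1*, *Myl12a*, *Actn4* and *Sec13*, at 0.015 to 0.021. Nearest to *Mup16* were *Sprr1a*, *Ivl*, *Gm47283*, *Cyp2c23* and *Krt19*, at 0.190 to 0.205. *Sprr1a* was at 1982 ± 206 CPM in C75S and 1141 ± 67.2 in WT, and *Cyp2c23* at 37.1 ± 3.97 and 19.9 ± 2.66 CPM. All these profiles share the same 6 libraries and the same 2 groups.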

How the data were processed

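Gene counts of 6 libraries of mouse hepatocytes, 3 per genotype, were analysed, with groups and replicate numbers taken from the sample titles. The authors deposited tables in STAR's gene-count layout, whole-number read counts with Ensembl identifiers, with 4 summary rows that were left out. The submitters' processing notes name Trim Galore 0.6.6, STAR 2.7.9a, edgeR 3.36.0 and the builds mm10 and GRCm38, without roles, and the annotation release is not given in the sources used here. Reverse-strand counts were used, since their sum was 32.9 to 33.9 times that of the forward strand. Of 55487 gene rows 55227 matched GENCODE M21 by identifier.

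Genes were filtered with edgeR's filterByExpr (minimum count 10), scaled by TMM and tested with edgeR 4.0.16 (robust quasi-likelihood F-test, two-sided, genotype only), with Benjamini-Hochberg adjustment over 12741 genes and a threshold of 0.05. The test was first tried on simulated counts. The standard error is the fold change over the square root of F. CPM uses TMM-scaled library sizes. A count of 3 corresponds to 0.143 to 0.177 CPM. Coding sequences (principal transcripts, GENCODE M21) were aligned with Biopython 1.88 and MAFFT 7.526, gaps counted as differences. The members and gene lists were chosen with earlier results of these data known. Named genes are the 10 members, other *Mup* genes with at least 10 counts, up to 3 called genes per list, fixed regulators and the 5 nearest profiles; other genes named were chosen after their values were seen.

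Alternatives were RLE and library-size scaling, no filter, DESeq2 1.42.0, unstranded counts, a replicate block, and leaving out each library. One marker list is not reported here.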

Additional observations from a re-analysis of the deposited data

How the results depend on the processing

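The 10 *Mup* genes were chosen on this same difference, so refits describe them and add no support: 6 were called in each of the 12 alternative fits except that without WT replicate 1, where *Mup12* made it 7. Over all genes, the count of 396 called genes ranged from 201 to 355 when single libraries were left out (201 when WT replicate 2 was dropped, 246 for WT replicate 3 and 253 for C75S replicate 1), and it was 573 with no filter. The labels do not say whether the replicate numbers pair the libraries. Deviations of same-numbered libraries correlated at 0.02, -0.04 and 0.03 across genes, and those of differently numbered libraries at -0.04 to 0.02. With 3 libraries per genotype these values cannot decide it. A replicate block gave 480 calls and the same 6 *Mup* calls.

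The log2 ratio of the summed genes was 0.13, ranged from 0.116 to 0.157 when single libraries were left out, and was 0.18 without *Mup3*. Direction was lost for values near 0 when single libraries were left out: *Mup21* ranged from -0.027 to 0.111, *Zhx2* from -0.083 to 0.046 and *Mtdh* from -0.022 to 0.050, none of them called in any fit. The cause was not tested. Unique sequence limits the depth: in the longest transcripts of *Mup14* and *Mup1*, 8.60% and 12.8% of the 100-base stretches were unique. Exons outside these transcripts were counted but not scored.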
